A study of Klebsormidium nitens with 6 samples.

Results

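The genes described here are the moderately induced part of a response to OPDA: 196 of 17152 genes of *Klebsormidium nitens* whose transcripts were already well counted in mock medium and were 2- to 4-fold higher in OPDA. They were chosen by measured values. Each had a mean of at least 240 normalized counts over the 3 mock libraries, about 10 CPM (read counts scaled to a library of fixed size), a ratio of the OPDA mean to the mock mean of at least 2 and under 4 (with 1 added to each mean), and its lowest OPDA value above its highest mock value. The mock floor was met by 10102 genes. All 196 genes with a ratio in this range had groups that did not overlap, so the condition on overlap removed none of them. Normalized counts are read counts divided by a size factor per library. They are not divided by gene length, so the order of counts between genes is not an order of transcript abundance.

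*K. nitens* is a filamentous alga of the streptophytes, the lineage that also holds the land plants. OPDA (12-oxo-phytodienoic acid) is made from a polyunsaturated fatty acid by lipoxygenase and the enzymes that follow it, and is the precursor of jasmonate in flowering plants. It carries a reactive unsaturated carbonyl, whose double bond can bind thiols. In land plants OPDA is known to change genes of detoxification, redox balance and protein folding also where the jasmonate receptor COI1 is missing. The series title places this experiment among such COI1-independent functions and in thermotolerance. The OPDA group was algal discs shaken for 2 hours in liquid Gamborg's B5 medium with 25 µM OPDA, and the mock group was discs shaken for as long in that medium with a mock treatment. All had first grown for a month on plates. No strain, genotype or clone is given in the labels. The labels leave unsaid if a group's libraries are separate cultures. Adjusted p-values therefore judge a difference against the spread between these libraries, which may be technical.

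There were 3 OPDA libraries (replicates 1, 2 and 4) of 23693021 to 23989299 counts and 3 mock libraries (replicates 1, 2 and 3) of 23963595 to 24169072 counts. The 196 genes had between 184 and 136525 raw counts in every library. The gene table of assembly ASM70883v1 holds a matching locus tag for 194 of the IDs, and the other 2 are IDs with a g number. For none of them does it hold a name or a product, so no function is given to any gene below. The labels name no cell type, and the alga's identity could not be checked against marker genes for the same reason.

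The ratio of means had a median of 2.45 over the 196 genes. It was between 2 and 2.5 in 102 genes, between 2.5 and 3 in 46, between 3 and 3.5 in 25 and between 3.5 and 4 in 23. In OPDA the means ran from 532 to 132017 normalized counts, with a median of 3012. In mock they ran from 247 to 63042, with a median of 1101. The genes were spread over the whole range of mock counts. Of them, 33 had a mock mean of 240 to 480 and 71 one of 480 to 1200. It was 1200 to 2400 in 38, 2400 to 12000 in 46 and at least 12000 in 8. In the same order, these ranges held 1597, 3959, 2468, 1862 and 216 of the 10102 genes with the mock floor. Within the list, the ratio did not follow the mock count. Spearman's rho between them was 0.06 across the 196 genes, which are not independent replicates. The rule bounds both values, and the mock mean is part of the ratio. Whether the response depends on mock level in genes at large cannot be read from this. In OPDA, 27 of the genes reached a mean of at least 12000.

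**Figure D1:**
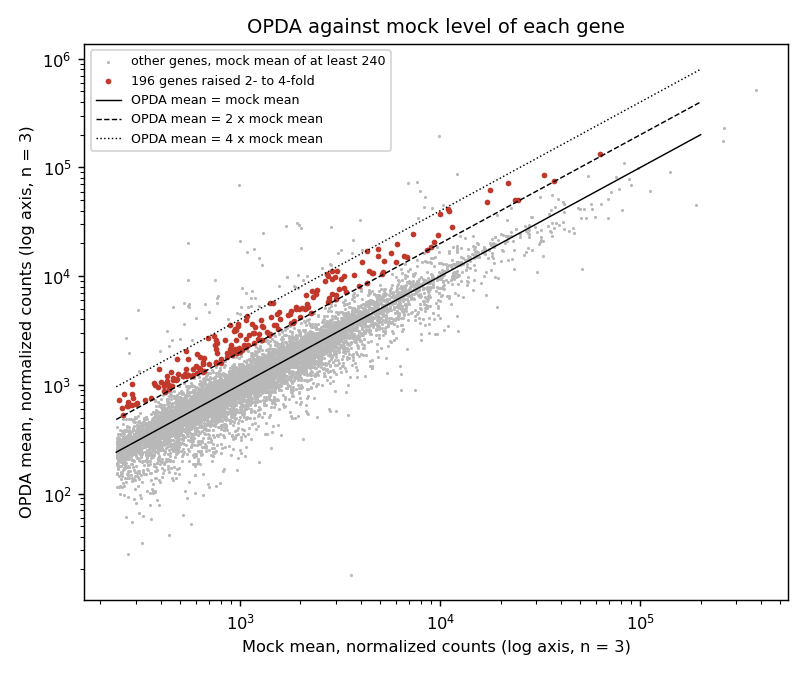
OPDA mean (vertical, log axis) against mock mean (horizontal, log axis) in normalized counts, 3 libraries each, for the 10102 genes with a mock mean of at least 240. The 196 genes (red) fill the band between the lines of 2 and 4 times the mock mean, from 247 to 63042 in mock.

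Together these genes took 6.40% ± 0.24 of all counts in OPDA and 2.60% ± 0.09 in mock (SD, n = 3 each). By library the shares were 6.15%, 6.41% and 6.63% in OPDA replicates 1, 2 and 4. They were 2.53%, 2.57% and 2.71% in mock replicates 1, 2 and 3. Direction and size of this difference follow from the way the genes were picked. A single gene, kfl00430_0080_v1.1 (KFL_004300080), held 8.39% of the list's normalized counts in OPDA, and the 6 genes with the highest OPDA counts held 30.4%. Without that gene the list took 5.86% ± 0.21 of counts in OPDA and 2.33% ± 0.06 in mock (SD, n = 3 each). In these bulk libraries, more cells with a transcript and more transcript per cell cannot be told apart.

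All 196 genes entered the test across genes, and 195 passed as higher in OPDA (edgeR's quasi-likelihood test, adjusted p under 0.05), against 26.5% of the 11752 genes tested. Against a 1.5-fold change in place of none, 186 of them passed, against 4.15% of the genes tested. Nothing is read from these counts, since the rule used the same contrast. The fitted log2 fold changes ran from 1.0 to 2.0, with a median of 1.30 beside 0.0045 over all genes tested. Their standard errors ran from 0.06 to 0.58, with a median of 0.09. The OPDA values lay above the mock values in all 196 by choice, against 32.6% of the 10102 genes with the same mock floor.

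The 6 genes with the highest OPDA counts differed in how tightly the libraries lay. The gene kfl00430_0080_v1.1 had 126575, 129145 and 140332 normalized counts in OPDA replicates 1, 2 and 4, against 50412, 67932 and 70780 in mock replicates 1, 2 and 3. Its mock replicate 1 was the low one, and the ratio of 2.09 dropped to 1.90 without that library, which would put the gene outside the list. In edgeR's fit its log2 fold change was 1.07 ± 0.12 (SE), with an adjusted p of 2.01e-05.

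The gene kfl00008_0110_v1.1 had 85076, 85644 and 86911 normalized counts in OPDA, against 33491, 33240 and 32177 in mock. The libraries of each group lay close together, and this was the tightest of the 196 genes, with a pooled SD of 0.02 on the log2 scale. The ratio was 2.60, and it stayed between 2.57 and 2.63 with any 1 library left out. The fitted log2 value was 1.38 ± 0.07 (SE), at an edgeR adjusted p of 9.41e-09.

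The gene kfl00091_0130_v1.1 had 80793, 73798 and 71842 normalized counts in OPDA, against 36140, 35328 and 39650 in mock. Its ratio of 2.04 lay close to the lower bound and dropped under it without OPDA replicate 1 (1.97) or mock replicate 2 (1.99). The gene kfl00131_0050_v1.1 had 67621, 80742 and 69548 normalized counts in OPDA, against 18240, 24452 and 22589 in mock. Replicate 2 was the highest library in either group, and the ratio was 3.34.

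The gene kfl00051_0190_v1.1 had 56041, 59383 and 68736 normalized counts in OPDA, against 15870, 17682 and 19325 in mock, a ratio of 3.48. The gene kfl00320_0150_v1.1 had 44561, 54117 and 52205 normalized counts in OPDA, against 24690, 21994 and 23875 in mock, a ratio of 2.14. Both, like kfl00131_0050_v1.1, kept a ratio between 2 and 4 with any 1 library left out.

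At the upper bound, kfl00464_0060_v1.1 had the largest ratio, 3.99. It had 4178, 4147 and 4639 normalized counts in OPDA, against 1155, 1047 and 1045 in mock. The fitted log2 value was 2.0 ± 0.07 (SE), at an edgeR adjusted p of 3.26e-10. The lowest OPDA value was 3.59 times the highest mock value, the widest distance between groups in the list. Next were kfl00109_0340_v1.1 at 3.98 and kfl00173_0020_v1.1 at 3.97. Just outside the bound lay kfl00084_0240_v1.1 (4.02), kfl00173_0320_v1.1 (4.20) and kfl00526_0020_v1.1 (4.24).

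At the lower bound, kfl00148_0260_v1.1 had the smallest ratio, 2.001. It had 18153, 16642 and 16948 normalized counts in OPDA, against 8240, 8755 and 8861 in mock. The genes kfl00003_0100_v1.1 and kfl00263_0060_v1.1 followed at 2.004 and 2.008. Just under the bound lay kfl00029_0100_v1.1 (1.9998), kfl00147_0260_v1.1 (1.995) and kfl00111_0010_v1.1 (1.991). The bounds cut through a continuous run of ratios, and 150 of the 196 genes met the rule with each of the 6 libraries left out in turn. With total-count scaling 35 of them had a ratio under 2, the lowest being 1.89.

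At the mock floor, kfl00358_0010_v1.1 had a mock mean of 247 and kfl00206_0210_v1.1 one of 257. Normalized counts of kfl00358_0010_v1.1 were 661, 751 and 754 in OPDA, against 263, 230 and 249 in mock. Below the floor lay kfl00512_0060_v1.1 with a mock mean of 236 and kfl00053_0460_v1.1 with 234, at ratios of 2.57 and 2.00.

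**Figure D2:**
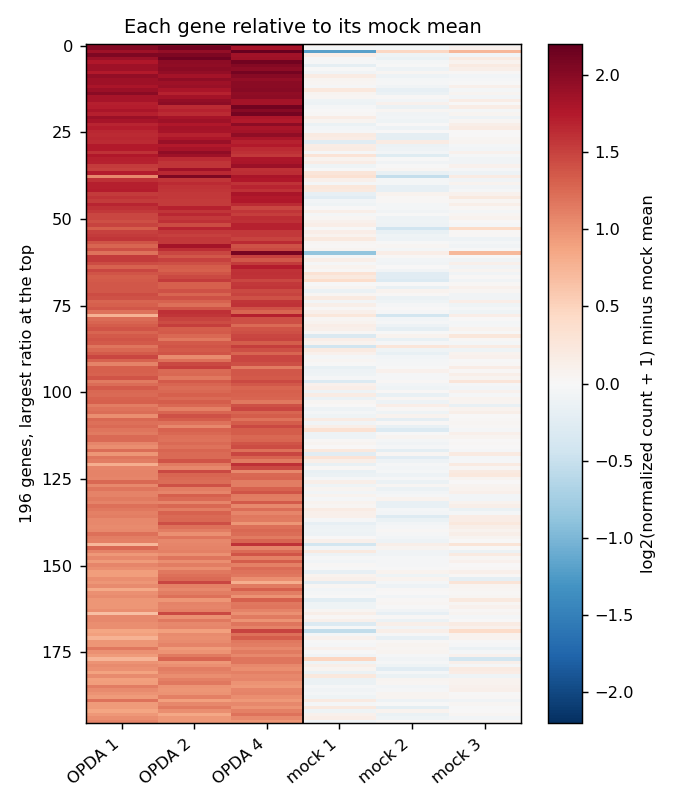
Colour is log2(normalized count + 1) minus the mean of the 3 mock libraries, for the 196 genes (rows, largest ratio at the top) and the 6 libraries (columns, OPDA left of mock). The OPDA columns shade evenly from about 2 at the top to about 1 at the bottom, and a few rows with uneven mock values stand out.

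In most of the genes the libraries of a group lay close together, though by the median less closely than in genes with the mock floor. The highest OPDA library was a median of 1.15 times the lowest, and the highest mock library 1.16 times the lowest. The median SD of log2 values was 0.104 in OPDA and 0.111 in mock, beside 0.084 in OPDA and 0.077 in mock over all 10102 genes with the mock floor. It was smaller in OPDA than in mock in 97 of the 196 genes (49.5%), beside 46.3% of the 10102. In 113 genes the lowest OPDA value was at least 2 times the highest mock value, and in 189 it was at least 1.5 times. The rule's ratio of at least 2 favours such distances. The median of that distance was 2.08.

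**Figure D3:**
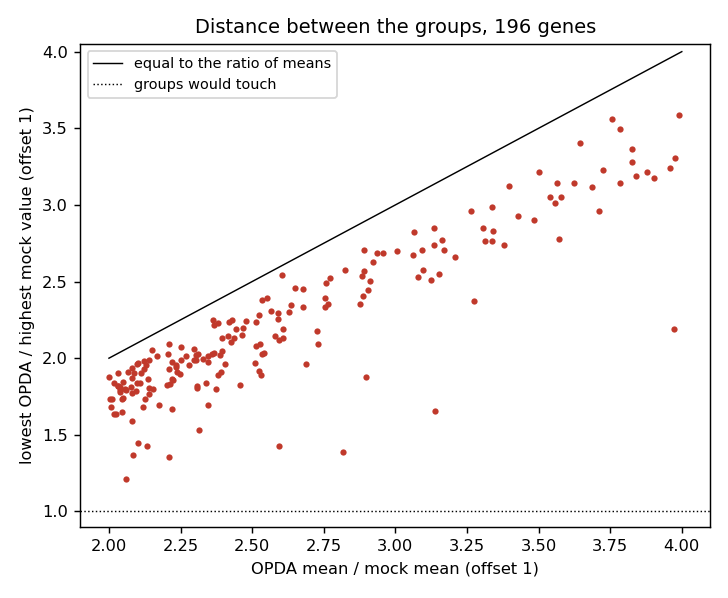
The lowest OPDA value over the highest mock value (vertical) against the ratio of means (horizontal) for the 196 genes, 1 point per gene. Most points run just under the solid line, where both would be equal, and 7 genes lie under 1.5.

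A handful of genes varied far more between libraries than the rest, and several of these did so in the same libraries. The pooled SD within groups on the log2 scale was at least 0.3 in 11 genes and at least 0.4 in 6, beside a median of 0.12. The gene kfl00173_0020_v1.1 was the most variable, with 2806, 2926 and 4886 normalized counts in OPDA, against 337, 1055 and 1280 in mock. OPDA replicate 4 was high and mock replicate 1 low, and the fitted log2 value was 1.99 ± 0.58 (SE), at an edgeR adjusted p of 0.0436. Its ratio was 3.03 without mock replicate 1 and 5.08 without mock replicate 3, and it kept the rule in only 2 of the 6 cases with a library left out. It no longer passed edgeR's test when any library other than mock replicate 1 was left out, with adjusted p up to 0.114 (without OPDA replicate 4).

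The gene kfl00104_0290_v1.1 had 764, 933 and 1428 normalized counts in OPDA, against 183, 373 and 551 in mock. It was the single gene of the list that did not pass, with a fitted log2 value of 1.496 ± 0.48 (SE) at an edgeR adjusted p of 0.0581, although its groups did not overlap. OPDA replicate 4 was again the high library and mock replicate 1 the low one. The adjacent genes kfl00578_0010_v1.1 and kfl00578_0015_v1.1 had the same libraries at the extremes. The first had 732, 754 and 1127 normalized counts in OPDA, against 275, 442 and 535 in mock. The second had 1131, 1438 and 2063 in OPDA, against 515, 747 and 834 in mock. Both passed in the full data (edgeR adjusted p = 0.0395 and 0.0331). The first lost the call without any 1 of the OPDA libraries or mock replicate 2, with adjusted p up to 0.103, and the second without OPDA replicate 2 or any 1 of the mock libraries, with adjusted p up to 0.086.

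In contrast, kfl00043_0280_v1.1 had 533, 1059 and 891 normalized counts in OPDA, against 322, 176 and 290 in mock, so that OPDA replicate 1 and mock replicate 2 were its low libraries. Its edgeR adjusted p of 0.0162 became 0.0561 without OPDA replicate 4 and 0.0540 without mock replicate 3. The narrowest distance between groups was that of kfl00411_0060_v1.1, with 421, 609 and 566 normalized counts in OPDA, against 347, 238 and 189 in mock. Its lowest OPDA value was 1.21 times its highest mock value, and its edgeR adjusted p of 0.0141 became 0.0567 without OPDA replicate 4 and 0.0544 without mock replicate 2. The tightest genes after kfl00008_0110_v1.1 were kfl00135_0060_v1.1, with 1212, 1266 and 1253 in OPDA against 590, 566 and 578 in mock, and kfl00068_0070_v1.1, with 5097, 4898 and 5170 in OPDA against 2178, 2077 and 2157 in mock.

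**Figure D4:**
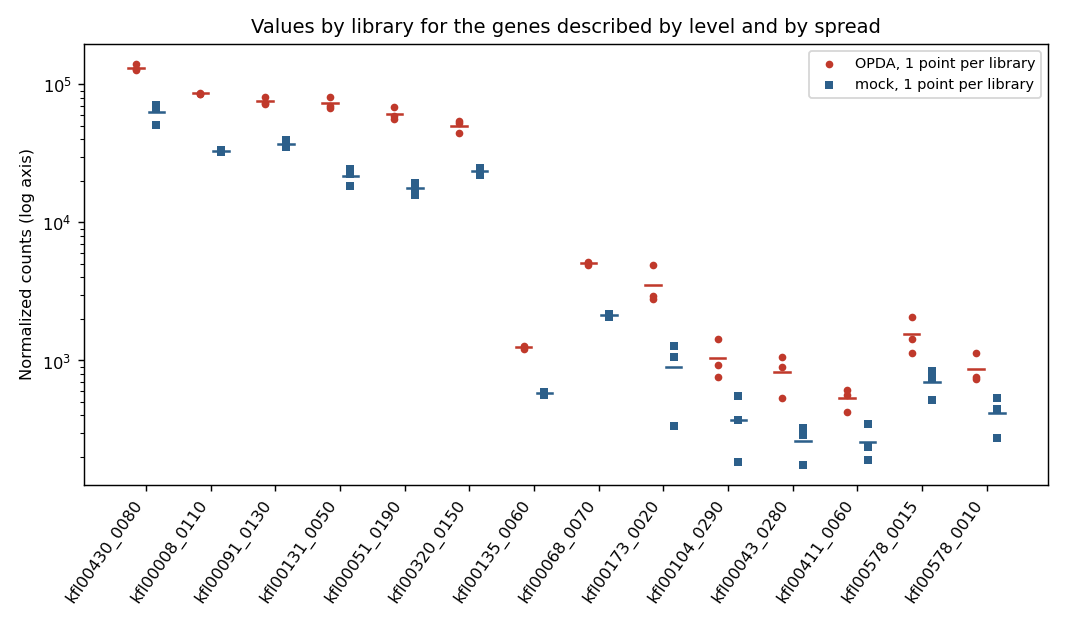
Normalized counts (log axis) by library for the genes of highest OPDA count, smallest and largest spread and narrowest distance between groups; points are libraries, OPDA (red circles) left of mock (blue squares), and bars are means. Mock replicate 1 is the isolated low point of kfl00173_0020 (337 normalized counts).

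Across the list, the libraries of a group did not share the extremes evenly. OPDA replicate 4 was the highest OPDA library in 112 of the 196 genes (57.1%), beside 32.1% of the 10102 genes with the mock floor. OPDA replicate 1 was the lowest in 102 (52.0%), beside 29.7%. In mock, replicate 2 was the lowest in 97 genes (49.5%), beside 29.9%, and the highest in 20 (10.2%), beside 29.1%. Mock replicate 3 was the highest in 91 (46.4%), beside 32.1%. These shifts were small. The median deviation of the 196 genes from their group mean, on the log2 scale, was -0.06, 0.00 and 0.06 in OPDA replicates 1, 2 and 4, and 0.01, -0.05 and 0.04 in mock replicates 1, 2 and 3. Over the 10102 genes every library's median deviation was within 0.01, which scaling by size factors is meant to bring about. The most common joint order, with OPDA replicate 1 lowest and 4 highest and mock replicate 1 lowest and 3 highest, held 25 genes (12.8%), beside 3.24% of the 10102. What sets these libraries apart in these genes was not tested. The list contains 186 genes without OPDA replicate 4 in place of 196, of which 174 are shared. Without mock replicate 1 it contains 191, of which 175 are shared.

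The 196 genes lay on 157 scaffolds, of which 31 held at least 2, and no scaffold held more than 3. They formed 12 pairs of adjacent genes with 23 members, by ID order and by the order of the gene table alike. In most of these pairs, the libraries' deviations from their group means were alike. The correlation of the 6 deviations between the genes of a pair had a median of 0.94 and was above 0.5 in 10 pairs and above 0.9 in 7. Among the 19098 other pairs of the 196 genes its median was 0.21 and 30.1% were above 0.5. Among the 6912 adjacent pairs of genes with the mock floor the median was 0.07 and 25.0% were above 0.5. In the 36 adjacent pairs of genes lowered 2- to 4-fold by OPDA with the same floor it was 0.40, and 16 of these were above 0.5. Genes raised at least 4-fold with that floor formed only 3 adjacent pairs. Their median was 0.26, and 1 was above 0.5. The points are 6 libraries that all genes share, and these values carry no test. The deviations are measured from the group means, but they are not independent of the choice of genes. A deviating library moves its group mean, and 150 of the 196 genes met the rule with each of the 6 libraries left out in turn.

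The pair kfl00049_0020_v1.1 and kfl00049_0025_v1.1 had ratios of 3.27 and 3.31. The first had 9559, 10345 and 8318 normalized counts in OPDA, against 3503, 2344 and 2770 in mock. The second had 13579, 14237 and 12677 in OPDA, against 4585, 3735 and 3903 in mock. Mock replicate 1 was high and OPDA replicate 4 low in both, with a correlation of deviations of 0.98.

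The pair kfl00240_0040_v1.1 and kfl00240_0050_v1.1 differed in counts but not in profile. The first had 3205, 3468 and 3810 normalized counts in OPDA, against 1472, 1070 and 1300 in mock, a ratio of 2.73. The second had 22632, 23263 and 27756 in OPDA, against 8269, 6295 and 7235 in mock, a ratio of 3.38. Mock replicate 2 was low and OPDA replicate 4 high in both, with a correlation of deviations of 0.96.

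The pair kfl00606_0050_v1.1 and kfl00606_0060_v1.1 had the highest summed OPDA count. The first had 2893, 3687 and 2902 normalized counts in OPDA, against 939, 913 and 1016 in mock, and the second 36242, 43340 and 39549 in OPDA, against 10241, 11874 and 11166 in mock. OPDA replicate 2 was high in both, the mock libraries did not follow each other, and the correlation was 0.59.

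The pair kfl00152_0080_v1.1 and kfl00152_0090_v1.1 had ratios of 2.75 and 2.61 and a correlation of 0.93. The first had 9075, 9281 and 12164 normalized counts in OPDA, against 3887, 3710 and 3479 in mock. The second had 4726, 4398 and 5741 in OPDA, against 2063, 1867 and 1771 in mock, so OPDA replicate 4 was high and mock replicate 3 low in both.

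The pair kfl00109_0330_v1.1 and kfl00109_0340_v1.1 rose by like amounts, with ratios of 3.56 and 3.98, while their libraries deviated in opposite directions, at a correlation of -0.96. The first had 3416, 3153 and 3904 normalized counts in OPDA, against 983, 1003 and 950 in mock. The second had 5725, 6130 and 4973 in OPDA, against 1363, 1362 and 1504 in mock. OPDA replicate 4 was thus the highest library of the first gene and the lowest of the second.

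The genes kfl00050_0290_v1.1, kfl00050_0300_v1.1 and kfl00050_0310_v1.1 were the only 3 in a row among the 196, and the last was named after its values were seen. Their ratios were 3.96, 2.02 and 2.35. The first had 17826, 17751 and 15294 normalized counts in OPDA, against 4721, 4011 and 4112 in mock. The second had 2934, 2388 and 2468 in OPDA, against 1459, 1175 and 1213 in mock. The last had 3079, 3457 and 4104 in OPDA, against 1527, 1483 and 1521 in mock. Deviations correlated at 0.70 between the first and second and at -0.43 between the second and the last.

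**Figure D5:**
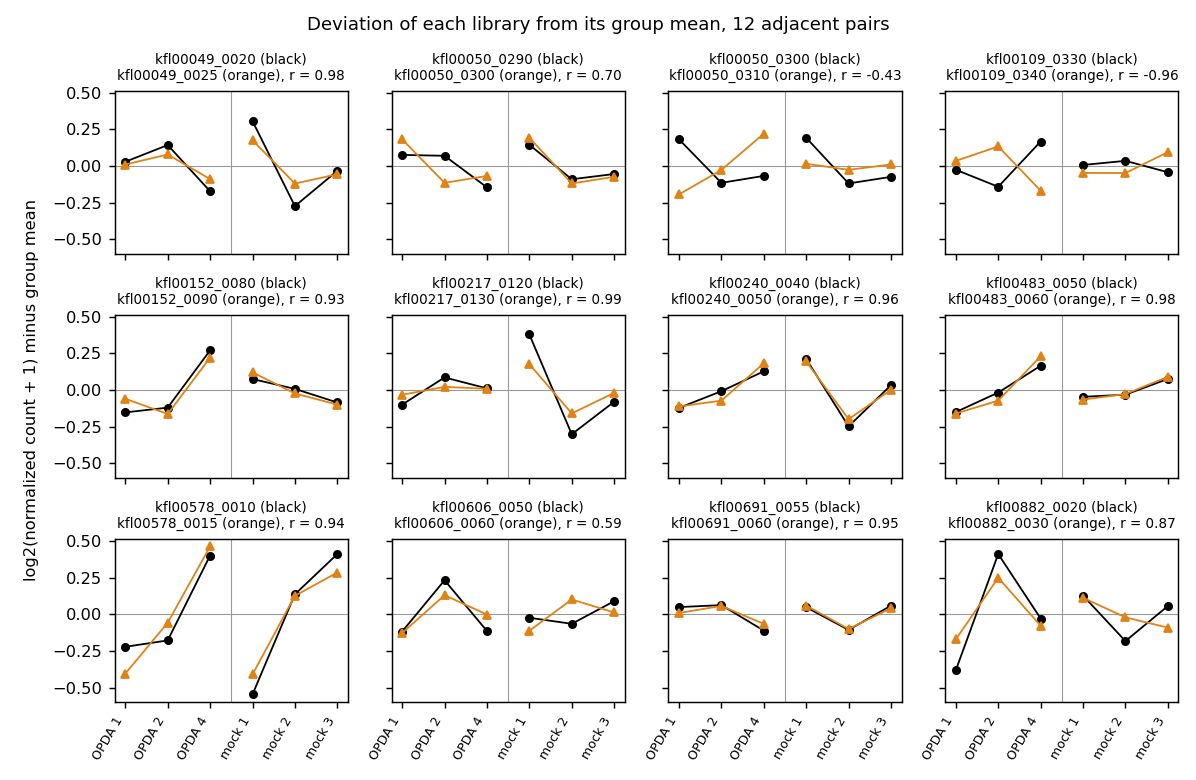
Deviation of each library from its group mean, log2(normalized count + 1), for the 12 adjacent pairs (black and orange, OPDA left of mock); lines only join the points of a gene. The correlation r is above 0.5 in 10 pairs, and kfl00109_0330 and kfl00109_0340 mirror each other (r = -0.96).

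The neighbours that are not themselves among the 196 also leaned upwards. Of 327 such genes, 275 were tested, and 134 of these passed as higher in OPDA (48.7%), against 26.5% of all genes tested. Lower in OPDA were 51 (18.5%), against 27.5% of all genes tested. Next to any gene with the mock floor, the shares were 27.3% higher and 27.4% lower. The median log2 fold change of the 275 neighbours was 0.18, beside 0.011 next to any gene with the floor. The median neighbour thus differed far less between the groups than the genes it adjoins, but 13 of the 275 passed edgeR's test with a fitted change of at least 4-fold upwards. Of these 13, 7 had a mock mean under 240 normalized counts. How many of all genes tested passed in this way was not counted, so nothing is read from the 13.

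Of the 108 tested neighbours of the 78 genes with the mock floor that were raised at least 4-fold, 52 were higher (48.1%) and 25 lower (23.1%). Of the 492 tested neighbours of the 371 genes lowered 2- to 4-fold, 122 were higher (24.8%) and 175 lower (35.6%). A fitted change of at least 4-fold upwards that passed was found in 6 of the 108 and in 4 of the 492. All these shares come from the same 6 libraries and carry no test. Whether reads of adjoining or overlapping genes were counted for both was not tested, and it touches the profiles of adjacent pairs in the same way.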

How the data were processed

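RNA of *Klebsormidium nitens* was sequenced in 6 libraries, 3 from algae in 25 µM OPDA and 3 from algae in mock medium, each for 2 hours. The authors deposited 1 table of raw read counts per library, with 17153 gene IDs. They also deposited a normalized signal table of 17152 genes, in which every value was the raw count divided by 1 size factor per library (0.962 to 1.04). All values times that factor were whole within 1e-06. Trim Galore, HISAT2, HTSeq and DESeq2 stand in the submitters' processing notes, without versions; build, counting mode and strand setting: not given in the sources used here. Overlapping, antisense or near-identical genes may therefore share or split their reads.

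The 196 genes were chosen on the normalized table. Levels below are its values, and spread is on log2(normalized count + 1). Raw counts of all 6 libraries went into the quasi-likelihood test of edgeR (version 4.0.16 under R 4.3.3, with limma 3.58.1; filterByExpr, TMM, robust estimation, no covariate), with Benjamini-Hochberg adjustment over 11752 genes and a threshold of 0.05. A standard error is the fitted log2 value over the root of its F statistic. Alternatives were other scalings, filters and tools (DESeq2 1.42.0, limma-voom), a replicate block, a test against a 1.5-fold change and leaving out each library. Adjacent genes were taken from the numbers in the IDs and checked against the gene order of assembly ASM70883v1, which held 16048 of the IDs. The members, lists and tests were chosen with earlier results of these data known. Named genes are those of highest OPDA count, largest and smallest ratio, spread and gap, lowest mock level, the nearest genes outside each bound, and the first 6 adjacent pairs by OPDA count; any other is said to have been chosen after its values were seen. The planned lists by product name and the planned sequence features were not run, since the gene table holds neither.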

Additional observations from a re-analysis of the deposited data

How the results depend on the processing

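The list held 164 to 226 genes under the planned changes of its rule in place of 196. Total-count scaling removed 35 of the 196 genes, the lowest ratio then being 1.89, and moved the median log2 fold change of all tested genes to -0.08, against 0.00 with TMM. Leaving out 1 library gave 186 to 204 genes. Of the 196 genes, 190 to 196 passed under every alternative test other than the one against a 1.5-fold change, which 186 passed; that test called 1238 genes over all, in place of 6348, since it asks for a larger change. Under a replicate block, 191 of the 196 passed, and 5023 over all genes. Mock replicate 3 and OPDA replicate 4 have no partner of their number. The OPDA effect of that fit, and its adjusted p, therefore rested on replicates 1 and 2 alone. Replicates 1 and 2 occur in both groups, but their deviations correlated at 0.07 and -0.07 across genes. Between OPDA and mock libraries of unlike number, the correlations ran from -0.11 to 0.11. Nothing says that the numbers mark a shared culture. Over all genes, DESeq2 called 5898 and limma-voom 6348. None of 510 values for the 34 named members changed sign under the 15 alternatives. The rule, with every OPDA value above every mock value, favours this. Nothing is read from it, nor from the numbers of the 196 genes that passed. Of the 510 values, 29 lost the call, in 5 members (kfl00043_0280_v1.1, kfl00173_0020_v1.1, kfl00411_0060_v1.1, kfl00578_0010_v1.1 and kfl00578_0015_v1.1). Under the replicate block these losses had adjusted p of 0.188 (kfl00043_0280_v1.1), 0.0970 (kfl00173_0020_v1.1) and 0.0964 (kfl00411_0060_v1.1, log2 fold change 0.81). Against a 1.5-fold change all 5 members lost the call, with adjusted p of 0.104 to 0.364. The gene kfl00104_0290_v1.1 gained the call under 5 alternatives, with adjusted p of 0.0019 to 0.0499 in these; its highest adjusted p over the 15 alternatives was 0.347. The list's share of OPDA counts was 5.56% without mock replicate 1 and 5.91% without mock replicate 2, in place of 6.40%; in the first case kfl00430_0080_v1.1 was no longer in the list. Depth was not varied, and the lowest raw count of any of the 196 genes in a library was 184.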
